A study of Mus musculus with 6 samples.

Results

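The small RNAs described here were 24 of the 30142 genes measured under a single symbol on Affymetrix arrays of mouse heart: 18 with a Snora symbol (H/ACA box small nucleolar RNAs) and 6 with a Scarna symbol (small Cajal body-specific RNAs). They were chosen by name, as every probe set whose platform annotation held exactly 1 gene symbol beginning with Snora or Scarna and a digit. Of 25 such probe sets, 2 belonged to Snora73b, and the one with the higher mean over the 6 arrays was used. The rule uses no difference between the groups.

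H/ACA RNAs guide the enzyme dyskerin to single uridines of ribosomal RNA, which become pseudouridines, and each works in a particle with dyskerin, NOP10, NHP2 and GAR1. Scarna RNAs do the same kind of work on the small nuclear RNAs of the spliceosome inside Cajal bodies, and they include H/ACA guides, C/D guides of ribose methylation and composites of both. Most of these RNAs in mammals are cut from introns of other genes, called host genes, so that their amount depends on the host's transcription, on splicing and trimming, and on how well the finished particle is protected.

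The 6 arrays held ventricular RNA of 6 male mice, 20 weeks old, on the C57BL/10 background. All 6 lacked dystrophin (mdx) and carried a single working utrophin allele, a model of Duchenne muscular dystrophy called Het in the labels, so no healthy heart was among them. The 3 mice of the finerenone group ate chow with 100 ppm of finerenone, a nonsteroidal antagonist of the mineralocorticoid receptor, from 4 weeks of age. The 3 untreated mice ate that chow without it. Sample titles call the mice biological replicates, and their replicate numbers name them below. RNA was taken up in TRIzol, treated with DNase and passed over a silica column. Such columns, used in the standard way, hold short RNAs less well than messenger RNAs, and how much of each member was kept was not measured.

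Values are log2 probe-set signals as deposited, and every difference is finerenone minus untreated on that scale. The arrays carried 5222 negative control probe sets, whose median ran from 5.04 to 5.33 across arrays and whose 95th percentile ran from 8.35 to 8.73. Cardiomyocyte markers were high (6 of 7 listed genes measured, mean levels 12.48 to 19.93), while the lists for T cells, B cells, atrium and skeletal muscle lay below that 95th percentile. The array of untreated replicate 1 stood apart for liver transcripts: Alb read 16.7 there and 4.10 to 4.38 on the other 5 arrays, Apoa1 read 6.45 and Ttr read 7.55. The counts, the median and the differences of the members described most fully are also given without that array. In bulk tissue, fewer cells of a type and less RNA per cell cannot be told apart.

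The RefSeq gene table of assembly GRCm38.p6 held 48 genes with such symbols. Besides the 24 members, 23 were on the array only in probe sets annotated with several symbols, and 1, Snora57, was in neither. In 7 of the 23 several-symbol probe sets a partner was a microRNA, and some H/ACA and Cajal body RNA genes are known to contain a microRNA hairpin. RefSeq hairpins of 5 such pairs are shown here, since for these genes the guide RNA and the microRNA precursor cannot be told apart by the probe set. They are written 5′ to 3′ as RNA, with the mature microRNA arms in capitals.

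Scarna3a and Mir1843b, chr1:159340358-159340423, plus strand, both arms of the microRNA within the guide RNA: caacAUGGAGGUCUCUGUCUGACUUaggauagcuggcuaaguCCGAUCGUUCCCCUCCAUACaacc
Scarna3b and Mir1843a, chr12:80391613-80391677, minus strand: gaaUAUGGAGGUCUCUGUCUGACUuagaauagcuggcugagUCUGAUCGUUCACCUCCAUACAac
Snora36b and Mir664, chr1:185242975-185243043, plus strand: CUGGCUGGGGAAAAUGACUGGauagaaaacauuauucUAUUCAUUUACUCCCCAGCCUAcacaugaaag
Scarna13 and Mir3069, chr12:105031077-105031141, minus strand: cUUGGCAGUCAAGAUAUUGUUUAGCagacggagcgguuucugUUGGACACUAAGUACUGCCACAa
Snora19 and Mir3084-2, chr19:60774329-60774397, minus strand: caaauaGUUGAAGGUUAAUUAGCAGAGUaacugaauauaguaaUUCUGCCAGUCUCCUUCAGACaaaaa

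The hairpin of Mir1843b lay wholly within Scarna3a (66 of 66 bases), and that of Mir3069 wholly within Scarna13 (65 of 65 bases). The Mir1843a and Mir664 hairpins each shared 64 bases with their guide RNA. Snora19, the only member in this group, is a 56-base gene in RefSeq and lies wholly inside the 69-base hairpin of Mir3084-2. Its probe set and the one annotated with both Snora19 and Mir3084 held identical values on all 6 arrays, so these are one measurement under different names.

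Members were bright against the negative controls. On all 6 arrays, 16 of the 24 exceeded the 95th percentile of the negative controls (66.7%, against 15.7% of all genes): 11 Snora and 5 Scarna RNAs. Snora75 exceeded it on 2 arrays, and Scarna8, Snora19, Snora20, Snora2b, Snora35, Snora41 and Snora78 on none. Against the 99th percentile, which ran from 12.9 to 14.2, 3 members were above on every array: Scarna17, Snora16a and Snora21. By mean signal 13 members lay at or above the 90th percentile of all genes. Snora35, an RNA from an intron of the serotonin receptor gene Htr2c that is known from brain, lay below the median of all genes and read 3.49 to 3.68. Probe sets differ in their probes, so the levels of one member say nothing about its amount relative to another member.

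**Figure D1:**
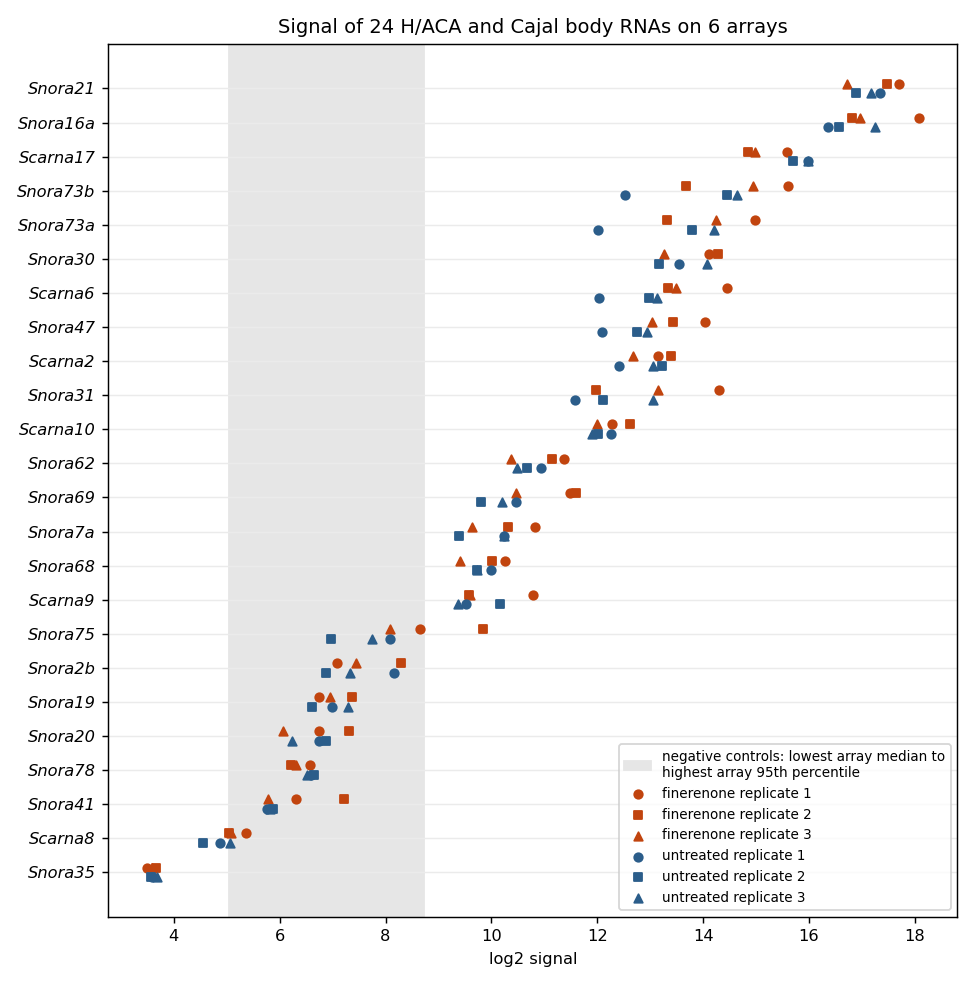
Log2 signal of each of the 24 members on each array (colour for the group, marker shape for the replicate); the grey band runs from the lowest array median to the highest array 95th percentile of the negative controls. A total of 16 members lie above the 95th percentile on all 6 arrays, and points of one member are spread over a median of 1.34.

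Within groups, members varied between arrays more than most genes. Each mouse gave a single array, so variation between mice and between preparations cannot be told apart. The median within-group SD over the members was 0.50 (range 0.08 to 1.08), against 0.16 over all genes and 0.19 over genes above the negative controls. Other nucleolar and guide RNAs were about as spread, while microRNAs and small nuclear RNAs were less so. Above the negative controls the median was 0.57 over C/D box RNAs with a Snord symbol and 0.50 over other guide RNAs. It was 0.44 over other small nucleolar RNAs, 0.33 over microRNAs and 0.29 over small nuclear RNAs. From the lowest to the highest array, 16 members spanned at least 1 on the log2 scale and 5 spanned at least 2. Between arrays, the median absolute difference of a member was 0.25 to 0.76, while that of all genes was 0.14 to 0.18. Correlations across the 24 members were nonetheless 0.978 to 0.996 between arrays of one group and 0.967 to 0.996 between arrays of different groups. These correlations are a description over probe sets shared by both arrays and reflect the order of the members' levels.

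The spread followed particular arrays. Finerenone replicate 1 held the highest value of 12 members and finerenone replicate 2 that of 9, together 21 of 24 (87.5%, against 42.5% of all genes for these 2 arrays). Finerenone replicate 3 held the highest value of none and the lowest of 4. The lowest value was in untreated replicate 1 for 8 members, among them Scarna6, Snora31, Snora47, Snora73a and Snora73b, and in untreated replicate 2 for 7, among them Snora69 and Snora75. Averaged over the 24 members, the arrays read 11.25, 10.95 and 10.59 in finerenone replicates 1 to 3 and 10.42, 10.47 and 10.71 in untreated replicates 1 to 3. The groups overlapped on that mean, since untreated replicate 3 exceeded finerenone replicate 3.

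**Figure D2:**
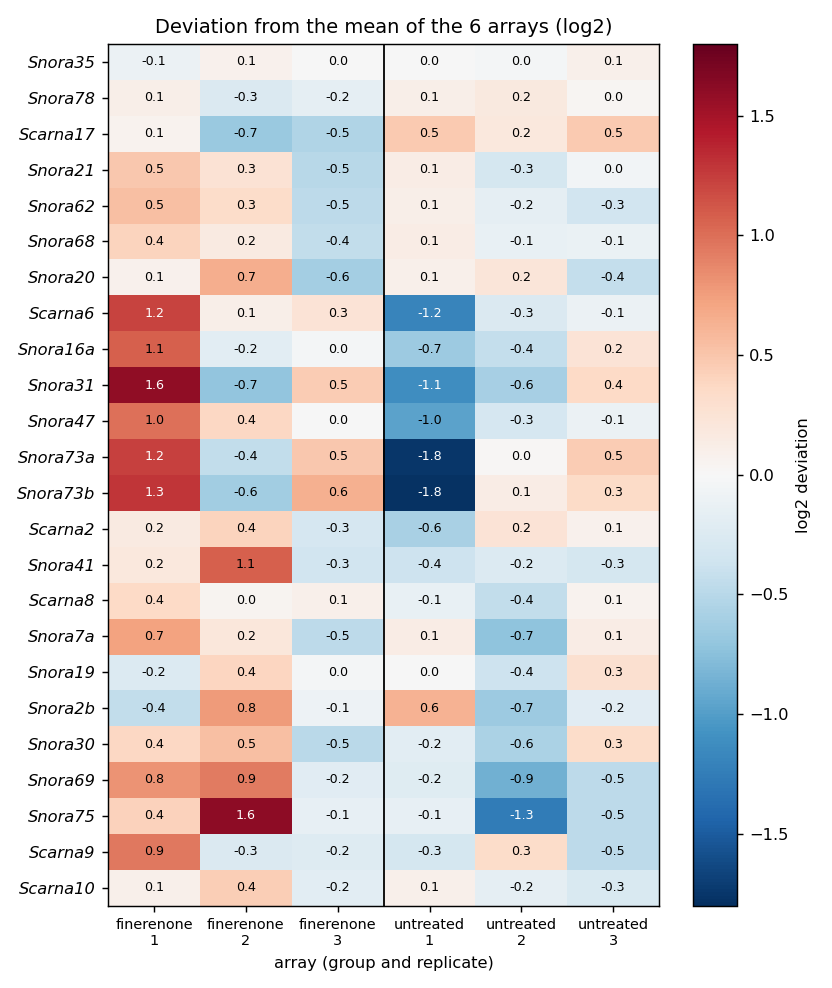
Deviation of each member on each array from its own mean over the 6 arrays, in log2 units, with arrays in columns and members in rows, ordered by the array that held the lowest value. Finerenone replicates 1 and 2 hold the highest value of 21 members, and untreated replicates 1 and 2 the lowest of 15.

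With finerenone, 21 members were measured higher and 3 lower (87.5% higher, against 58.2% of all genes), and the median difference was 0.29 against 0.03 over all genes. Of the 16 members above the negative controls on all arrays 15 were higher (median 0.30), against 3014 of 4739 such genes (median 0.08). The median over all 24 members was 0.19 after quantile normalization and 0.23 after cyclic loess. No member had an adjusted p below 0.05 in limma, where p-values were adjusted over all genes; the lowest adjusted p was 0.597, and 0 of the 30142 genes passed. At an unadjusted p below 0.05, 4 members were higher (16.7%, against 5.69% of all genes) and 1 was lower (4.17%, against 2.12%), in all 5 of 24 (20.8%, against 7.81%). Over all genes that threshold took 1715 higher and 638 lower genes, and after quantile normalization 1263 and 871. With only genes above the negative controls tested, 2 of 16 members were higher at that threshold, against 629 of 5420 genes (11.6%). The values of the groups did not overlap for the same 5 members (20.8%, against 12.4% of all genes): 4 were higher (16.7%, against 8.17%) and 1 was lower (4.17%, against 4.18%). After quantile normalization or cyclic loess Snora69 and Snora75 overlapped, which left 3 of 24 members. The share of all genes under those normalizations is not given here, and with the deposited values it was 12.4%.

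The median and the counts leaned on single arrays. The median difference was 0.19 when finerenone replicate 1 was left out and 0.53 when finerenone replicate 3 was. Leaving out the array with the liver transcripts, untreated replicate 1, gave 0.30. The number of members higher at an unadjusted p below 0.05 was 0 when finerenone replicate 1 was left out, 7 when finerenone replicate 3 was, and 2 when finerenone replicate 2 was. It was also 2 when either of untreated replicates 1 and 2 was left out. The number lower was 2 without finerenone replicate 1. The number whose groups did not overlap was 9 with finerenone replicate 2 left out, 12 with finerenone replicate 3 left out and 8 with untreated replicate 3 left out. Groups with fewer arrays separate more easily, and the share of all genes with an array left out is not given here. These counts therefore cannot be read as a result about the members. Without untreated replicate 1, 20 members were measured higher. The difference of Scarna17 was then -0.71, that of Scarna6 0.71, of Snora47 0.66, of Snora69 1.18 and of Snora75 1.498. That of Snora31 was 0.56, against 0.90 with all arrays, and that of Snora16a was 0.37, against 0.56. The sign of the difference stayed the same for 16 members when each array was left out in turn, and turned for the other 8.

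**Figure D3:**
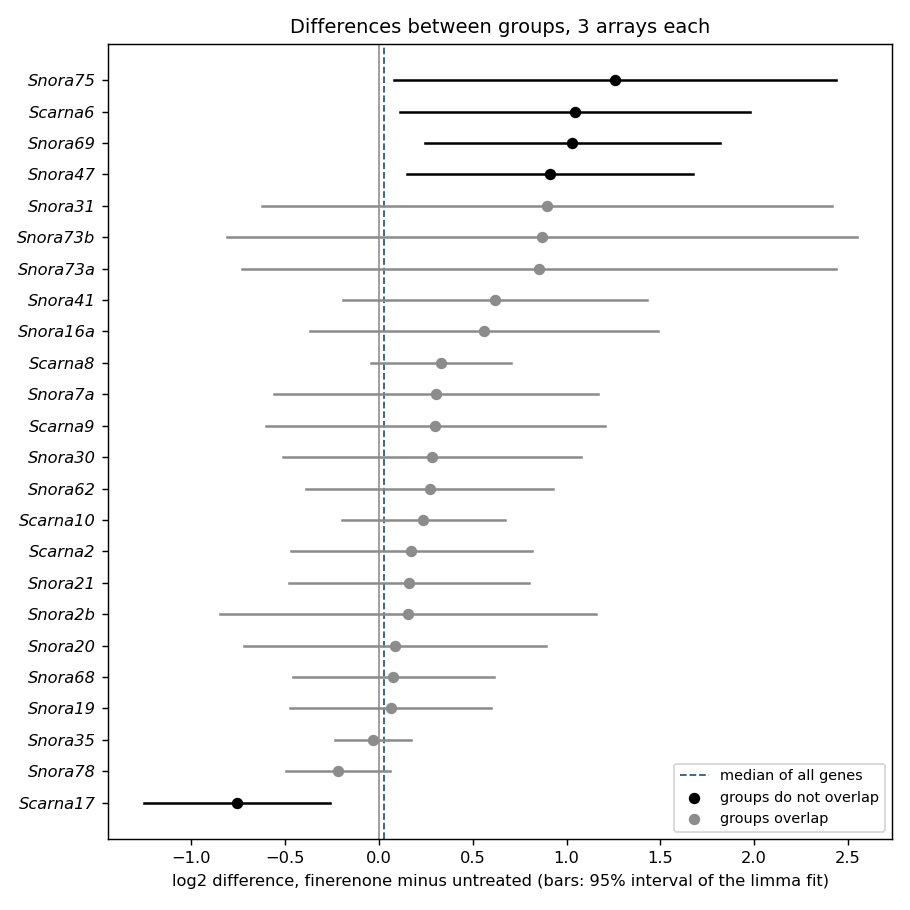
Log2 difference, finerenone minus untreated, of each of the 24 members with its 95% interval from limma; black marks members whose groups did not overlap, grey those whose groups did, and the dashed line is the median of all genes. A total of 21 differences lie above 0, and the 95% interval excludes 0 for 4 members above it and for Scarna17 below it.

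Among the Scarna RNAs, 5 were measured higher and 1, Scarna17, lower. Scarna17, a C/D-type guide for spliceosomal small nuclear RNAs, read 15.58, 14.84 and 14.97 in finerenone replicates 1 to 3 and 15.98, 15.69 and 15.99 in untreated replicates 1 to 3. Every finerenone mouse lay below every untreated mouse, by at least 0.12. The difference was -0.76 ± 0.21 (SE, n = 3 per group; 95% interval -1.25 to -0.26; limma unadjusted p = 0.009, adjusted p = 0.597). It ran from -0.98 to -0.61 when each array was left out in turn. It was the member with the smallest unadjusted p and the one that went against the direction of most others at that threshold.

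Scarna6, a composite guide with C/D and H/ACA parts, read 14.44, 13.34 and 13.49 with finerenone and 12.04, 12.97 and 13.13 without. The groups did not overlap, and untreated replicate 1 was the lowest. The difference was 1.05 ± 0.39 (limma unadjusted p = 0.034, adjusted p = 0.609), and it was 0.71 without untreated replicate 1.

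The groups of the other 4 Scarna RNAs overlapped. Scarna10, a composite guide for U5, read 12.28, 12.62 and 11.99 with finerenone and 12.26, 12.01 and 11.90 without, a difference of 0.24 ± 0.18 (SE) that was 0.07 without finerenone replicate 2. Scarna2, a C/D-type guide for U2 that RefSeq places in no host gene, read 13.14, 13.39 and 12.68 with finerenone and 12.40, 13.23 and 13.06 without. Its difference of 0.17 ± 0.27 was -0.07 without untreated replicate 1. Scarna8, an H/ACA guide, read 5.35, 5.04 and 5.09 with finerenone and 4.86, 4.56 and 5.06 without, near the negative control median. Its difference of 0.33 ± 0.16 was 0.20 without untreated replicate 2. Scarna9 spanned 9.36 to 10.78, and its difference of 0.30 ± 0.38 was -0.10 without finerenone replicate 1.

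Among the 18 H/ACA RNAs with a Snora symbol, 16 were measured higher. The 3 whose groups did not overlap were Snora69, Snora47 and Snora75. Snora69, which lies in an intron of the ribosomal protein gene Rpl39, read 11.48, 11.61 and 10.47 with finerenone and 10.46, 9.81 and 10.20 without. Its lowest finerenone value exceeded its highest untreated value by 0.02, and the groups overlapped after quantile normalization and after cyclic loess. The difference was 1.03 ± 0.33 (fold 2.04; limma unadjusted p = 0.018, adjusted p = 0.597), and 0.82 to 1.39 with each array left out.

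Snora47, within the RefSeq span of Zbed3 (strand not compared), read 14.04, 13.42 and 13.04 with finerenone and 12.08, 12.74 and 12.95 without. Finerenone replicate 1 was the highest and untreated replicate 1 the lowest, and the groups were 0.10 apart. The difference was 0.91 ± 0.32 (fold 1.88; limma unadjusted p = 0.026, adjusted p = 0.607), and 0.64 to 1.14 with each array left out.

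Snora75, from an intron of the nucleolin gene Ncl, read 8.65, 9.84 and 8.08 with finerenone and 8.08, 6.96 and 7.75 without. Its groups met at 8.08, where the finerenone value was higher past the second decimal only, and they overlapped after quantile normalization and after cyclic loess. The measured difference was 1.26 ± 0.49 (limma unadjusted p = 0.040, adjusted p = 0.620), and 0.77 to 1.64 with each array left out, lowest without finerenone replicate 2. Of the 3 untreated arrays 0, and of the 3 finerenone arrays 2, exceeded the 95th percentile of the negative controls, so the untreated level has only an upper bound. With the untreated values set at that percentile, the finerenone mean as measured was 1.25-fold higher. Finerenone replicate 3 was itself below the percentile, so this fold is not a lower bound.

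Snora73a and Snora73b, the copies of the RNA also called U17, act in cleavage of the ribosomal RNA precursor rather than as ordinary pseudouridine guides. Snora73a read 14.99, 13.32 and 14.25 with finerenone and 12.01, 13.78 and 14.21 without. Snora73b read 15.60, 13.68 and 14.94 with finerenone and 12.52, 14.44 and 14.65 without. Untreated replicate 1 was the lowest by more than 1 on the log2 scale in both, and finerenone replicate 2 lay below the other 2 untreated mice. The differences were 0.85 ± 0.66 and 0.87 ± 0.70, and without untreated replicate 1 they were 0.19 and 0.20. These copies are nearly identical, and their probe sets, with the second one of Snora73b, kept the same order of arrays, so they cannot be told apart. Counts over the 24 members hold both. Without Snora73a, a choice made after seeing the data, 20 of 23 members were measured higher (87.0%), 11 were highest in finerenone replicate 1, 7 were lowest in untreated replicate 1 and 4 spanned at least 2.

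Snora31, an H/ACA RNA from the gene Tpt1, read 14.30, 11.98 and 13.15 with finerenone and 11.58, 12.10 and 13.06 without. Finerenone mice held both the highest value and the second lowest. The difference was 0.90 ± 0.63, and it was 0.32 without finerenone replicate 1 and 1.48 without finerenone replicate 2.

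The brightest Snora RNAs overlapped between the groups. Snora16a, from the noncoding host Snhg12, read 18.08, 16.81 and 16.96 with finerenone and 16.35, 16.57 and 17.25 without, a difference of 0.56 ± 0.39 that was 0.16 without finerenone replicate 1. Snora21, from the ribosomal protein gene Rpl23, read 17.69, 17.48 and 16.71 with finerenone and 17.34, 16.89 and 17.16 without. Its difference of 0.16 ± 0.27 was -0.04 without finerenone replicate 1. Snora30, from an intron of Srcap, read 14.11, 14.28 and 13.26 with finerenone and 13.55, 13.18 and 14.07 without, a difference of 0.28 ± 0.33 that was 0.07 without untreated replicate 2.

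The other Snora RNAs gave small or uneven differences. Among them, Snora62, Snora68 and Snora7a exceeded the 95th percentile of the negative controls on all 6 arrays. Snora41, from an intron of the translation factor gene Eef1b2, read 6.31, 7.21 and 5.78 with finerenone and 5.76, 5.88 and 5.81 without. Its difference of 0.62 ± 0.34 was 0.23 without finerenone replicate 2, the highest array. Snora78 read 6.58, 6.21 and 6.31 with finerenone and 6.58, 6.65 and 6.52 without, a difference of -0.22 ± 0.12. Snora35 read 3.49, 3.67 and 3.59 with finerenone and 3.59, 3.56 and 3.68 without, a difference of -0.03 ± 0.08. The remaining 6 Snora RNAs (Snora19, Snora20, Snora2b, Snora62, Snora68 and Snora7a) differed by 0.06 to 0.30, each by less than its SE, and the sign turned for Snora19, Snora20, Snora2b and Snora68 when some array was left out.

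Of the 23 probe sets shared with other symbols, 21 hold the 23 guide RNAs that are not members. The other 2 are annotated with the members Snora19 and Snora73a, and only that of Snora19 repeats the member's values. The probe set of Snora73a and Snhg3 had a mean of 7.96 and differed by 0.30 ± 0.16. Snora73a under its own symbol had a mean of 13.76 and differed by 0.85 ± 0.66. In the same test over all 65956 transcript clusters 0 of the 21 passed and 1 had an unadjusted p below 0.05 (4.76%, against 6.27% of all clusters). Measured values were higher for 18 (85.7%, against 54% of all clusters) and lower for 3, and the median difference was 0.14. The exception, annotated with Snora81, Snord2 and their host Eif4a2, differed by 0.30 ± 0.09. The probe set of Scarna13 and Mir3069 differed by -0.09 ± 0.38, that of Snora74a, Snhg4 and Mir1949 by 0.08 ± 0.14, and that of Snora34 and Mir1291 by 0.67 ± 0.30. Where a partner is a host messenger RNA, the signal also holds the host's exons.

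Host genes and their small RNAs differed in the same direction no more often than in opposite ones. RefSeq placed 23 of the 24 members within 23 different host genes, 19 protein-coding and 4 long noncoding. Strand was not compared, so a gene on the other strand would also be called a host here. For 16 members a host had its own probe set: 8 pairs had differences of the same sign and 8 of opposite sign. No host passed in limma, and 3 had an unadjusted p below 0.05 (18.8%, against 7.81% of all genes): Tcp1 at 0.29, Kansl2 at -0.32 and Srcap at -0.26. Over the 6 arrays the small RNA spanned more than its host in 14 of the 16 pairs, with a median range of 1.34 against 0.36. Some hosts lay by mean signal below the 95th percentile of the negative controls, among them Ncapd2 (6.23), Cep295 (6.57), Haus6 (7.05) and Tpt1 (7.61). At such levels a narrow range or a small difference does not show a stable amount.

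The hosts of the members with the largest differences lay closer to 0. Ncl, the host of Snora75, read 11.86, 11.86 and 11.87 with finerenone and 11.97, 11.91 and 11.93 without, a difference of -0.07 ± 0.07. Atg16l1, the host of Scarna6, differed by -0.03 ± 0.10 and Zbed3, the host of Snora47, by 0.19 ± 0.10. Both had a mean of 7.20, below the 95th percentile of the negative controls, so these small differences do not show a stable amount. Rpl39, the host of Snora69, read 11.21, 11.21 and 10.70 with finerenone and 10.53, 10.96 and 10.55 without, a difference of 0.36 ± 0.19. Eef1b2, the host of Snora41, read 13.43, 13.96 and 13.00 with finerenone and 12.97, 13.21 and 12.73 without. In that pair finerenone replicate 2 was the highest array for both genes, and the host difference was 0.50 ± 0.25.

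**Figure D4:**
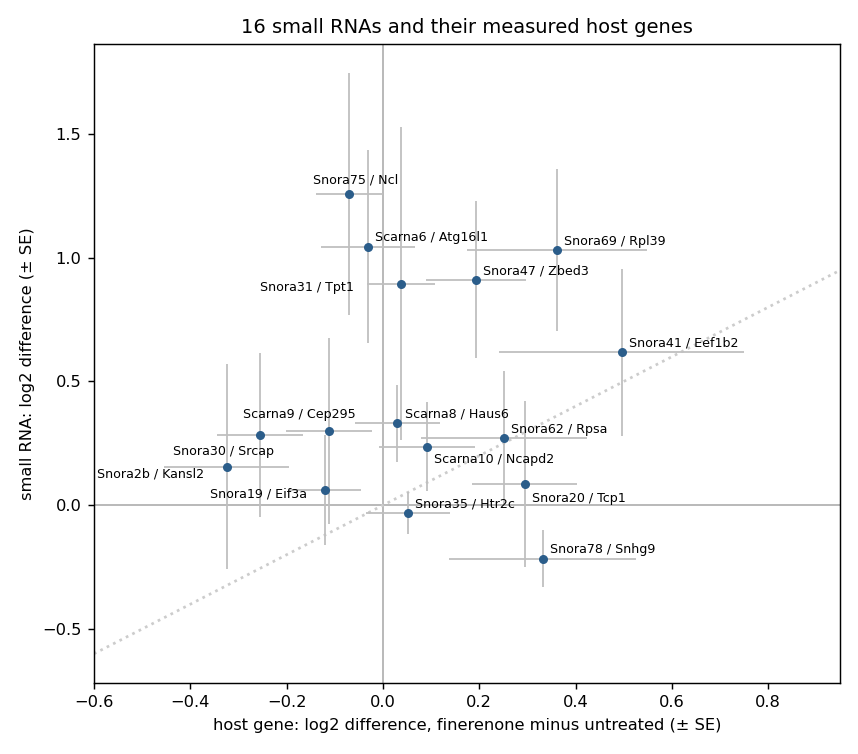
Log2 difference (finerenone minus untreated, ± SE) of 16 members on the vertical axis against that of the host gene on the horizontal axis; the dotted line marks equal differences. Host differences run from -0.32 to 0.50 and those of the small RNAs reach 1.26.

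Genes for the proteins that build, store or trim these particles differed little as measured. By mean signal most of those measured, Dkc1 (8.24) and Wrap53 (5.45) among them, lay below the 95th percentile of the negative controls. A small difference at such levels does not show a stable amount. Of 27 listed genes, 23 were measured under a single symbol, with 13 higher, 10 lower, a median difference of 0.03 and 0 passing in limma. In the H/ACA core, Nhp2 read 5.98, 5.96 and 5.82 with finerenone and 5.54, 5.79 and 5.53 without, so its groups did not overlap. Its difference was 0.30 ± 0.10 (limma unadjusted p = 0.026, adjusted p = 0.607), at a level below the 95th percentile of the negative controls. Dkc1, the gene of dyskerin, differed by -0.08 ± 0.11.

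Other roles held no gene with an unadjusted p below 0.05. Of 6 assembly genes, 3 were higher and 3 lower, and Naf1, an assembly factor of H/ACA particles, differed by -0.24 ± 0.14. Of 7 measured Cajal body genes, 4 were higher and 3 lower, with Sart3 at -0.19 ± 0.09. Wrap53, whose protein carries Scarna RNAs to Cajal bodies, differed by 0.00 ± 0.10 and turned below 0 after median centring; Coil, the gene of the Cajal body protein coilin, shared its probe set with other symbols. Among the 4 trimming and tailing genes, Exosc10, a nuclear exosome nuclease, differed by -0.23 ± 0.14. Nop58 of the C/D core differed by 0.10 ± 0.18, and by -0.08 without finerenone replicate 1.

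Other small RNAs on the same arrays give the setting for the higher readings. C/D box RNAs with a Snord symbol, which guide ribose methylation, were higher for 27 of 44, with a median difference of 0.05, and for 11 of the 23 above the negative controls. Spliceosomal and other small nuclear RNAs were higher for 757 of 914, with a median of 0.31, and for 266 of the 267 above the negative controls, with a median of 0.64. Many of these probe sets are copies of a few genes and do not count separately. Other guide RNAs by RefSeq biotype were higher for 20 of 31, with a median of 0.18, and for 5 of the 7 above the negative controls, with a median of 0.29. Other small nucleolar RNAs were higher for 595 of 893, with a median of 0.07, and for 38 of the 52 above the negative controls, with a median of 0.15. MicroRNA genes were higher for 284 of 600, with a median of -0.01, and for 6 of the 34 above the negative controls, with a median of -0.19. Protein-coding genes had a median of 0.02. Finerenone replicate 1 was the highest array for 53.4% of the small nuclear RNAs, 61.4% of the Snord RNAs, 12 of the 24 members and 18.2% of protein-coding genes. The part of that array in the members' differences was measured only by leaving it out, which gave the median of 0.19 above, against -0.17 for the Snord RNAs and 0.26 for the small nuclear RNAs.

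**Figure D5:**
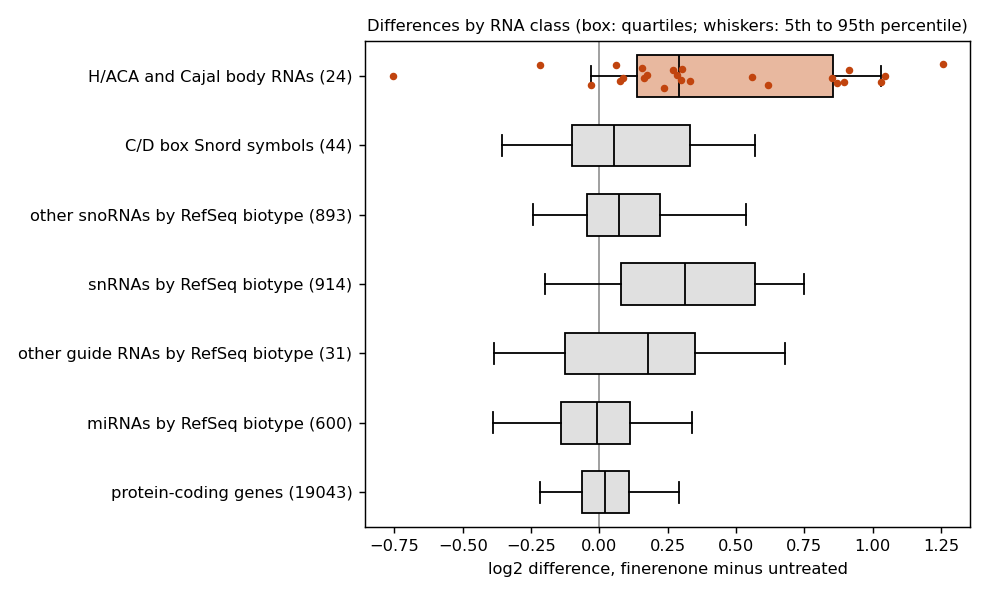
Distribution of the log2 differences, finerenone minus untreated, for the members (points show each one) and for other classes by RefSeq biotype or symbol; boxes span the quartiles with the median inside, whiskers the 5th to 95th percentile. The medians are 0.29 for the members, 0.05 for Snord RNAs, 0.31 for small nuclear RNAs, -0.01 for microRNAs and 0.02 for protein-coding genes.

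The pattern of Scarna17 over the 6 arrays was closest to that of Gm25443, another guide RNA (Pearson r = 0.993 over 6 arrays). Gm25443 read 16.40, 15.79 and 15.80 with finerenone and 16.70, 16.55 and 16.81 without, and whether its probes share sequence with Scarna17 was not tested. Outside the small RNAs, the 5 closest of the 30142 genes were Pde2a, Plpp3, Zkscan8, Col4a2 and Pprc1 (r = 0.988 to 0.992). These correlations pick the nearest of many genes over 6 points and are a description. Endothelial markers (4 of 4 measured lower, median difference -0.58, list mean 11.8 to 12.0 with finerenone and 12.0 to 12.9 without) and mural cell markers (5 of 5 lower, median -0.43, list mean 9.20 to 9.45 and 9.35 to 9.89) were, like Scarna17, measured lower. Macrophage markers (5 of 5 higher, median 0.25, list mean 10.3 to 10.9 and 10.1 to 10.6) were, like most members, measured higher. Above the 95th percentile of the negative controls were 3 of the 4 endothelial, 2 of the 5 mural and 3 of the 5 macrophage genes. Cardiomyocyte markers (4 higher, 2 lower) and fibroblast markers (2 higher, 1 lower) were mixed. None of these markers passed in limma, and their part in the members' differences was not tested.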

How the data were processed

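The deposited values are log2 probe-set signals. The submitters' processing notes name RMA, Affymetrix Expression Console and Transcriptome Analysis Console as the authors' tools. RMA subtracts background, gives all arrays one distribution and combines the probes of a set. Values entered the fit as deposited; program versions and the annotation build were not given in the sources used here. Of 72688 probe sets, 65956 were transcript clusters and 6732 controls. Clusters with 1 symbol (30604) took their names from the platform annotation, brought to RefSeq symbols (GRCm38.p6) through Entrez identifiers. If a gene had several clusters, that of highest mean was kept.

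Groups and replicate numbers came from the sample titles. The groups were compared with limma 3.58.1 (R 4.3.3; lmFit and eBayes, two-sided, no covariate, no filter on dim genes), with Benjamini-Hochberg adjustment over 30142 genes. The script was tested on simulated data. Having only 3 arrays per group limits the precision. Nothing ties replicate numbers to a litter, batch or day, and no batch was named in the labels. Same-numbered arrays of the 2 groups deviated from their group means with correlations of -0.15, 0.06 and 0.06, so the numbers were not taken to pair mice.

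Members described with all 6 values were the 8 brightest, up to 6 higher and 6 lower with the smallest unadjusted p, and Scarna2, Scarna10, Scarna13, Scarna17, Snora31, Snora73a, Snora73b and Snora74a where measured alone; of the 3 lower members all were described. Host genes, particle protein genes (smallest p per role, and Dkc1, Coil and Wrap53) and genes resembling Scarna17 followed rules written in the same way. The members and all lists were chosen with earlier results of these data known. Hairpins came from RefSeq. Alternatives were other normalizations, filters on dim genes, other moderation, weights on the arrays, a replicate block and each array left out.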

Additional observations from a re-analysis of the deposited data

How the results depend on the processing

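No gene passed an adjusted p of 0.05 in limma under any setting tried. The lowest adjusted p over all genes ran from 0.0725 (finerenone replicate 1 left out) to 0.870 (finerenone replicate 2 left out), and 2353 genes had an unadjusted p below 0.05 with all arrays. The number of members higher at an unadjusted p below 0.05 was 4. With only genes above the negative controls tested it was 2 of 16, against 629 of 5420 genes (11.6%). With each array left out it was 0 to 7, against 3.94% to 7.20% of all genes. The number lower was then 1 to 2, against 1.67% to 2.55% of all genes. Members whose groups do not overlap numbered 5 to 12, where fewer arrays separate more easily. The share of all genes with an array left out is not given here, so that range has no background. A fit with the replicate number as a block was also made, although the numbers were not taken to pair mice. In it 1 of 24 members was higher at that p, against 1715 of 30142 genes (5.69%). In the same fit 1 member was lower, against 604 genes. The cause of the change in the number higher was not tested. Members without overlap numbered 3 of 24 after quantile normalization and 3 after cyclic loess, against 5 with the deposited values. The share of all genes was 12.4% with the deposited values and is not given here for the other normalizations. Above the 99th percentile of the negative controls on all arrays were 3 members, against 16 above the 95th. With each array left out, differences spanned 0 for 8 members, Scarna9, Snora19, Snora20, Snora2b and Snora68 among them. Of the members described with all 6 values these were Scarna2 (-0.074 to 0.37), Snora21 (-0.038 to 0.45), and Snora35 (-0.074 to 0.015); Nop58 (-0.078 to 0.26) and Wrap53 (-0.082 to 0.058) also spanned 0. Wrap53 also turned to -0.0089 with median centring and -0.017 with array weights; the cause of these turns was not tested. Chosen after seeing the data, leaving out Snora73a gave a median of 0.28, members above the negative controls gave 0.30, and 20 members exceeded the background probe sets on all arrays.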
